A study of Homo sapiens with 6 samples.

Results

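In the MV4-11 acute myeloid leukemia (AML) line, 2033 H3K27ac promoter peaks of the control library had no counterpart after ANP32B knockdown. They were chosen by their positions in both MV4-11 lists, as NC peaks on chromosomes 1 to 22 and X that shared no base with any MV4-11 sh-ANP32B peak and overlapped a promoter window. Each of 19970 GENCODE v44 protein-coding genes had a promoter window, the 2500 bases on either side of its canonical transcript start. The NC list held 24491 peaks on these chromosomes, of which 7189 overlapped a promoter window. The lost peaks were thus 28.3% of the NC promoter peaks, and the other 5156 were kept. Outside promoters, 5088 of 17302 NC peaks were lost by the same criterion (29.4%), and over all NC peaks the share was 29.1%. The 2 MV4-11 lists chose the members, so that loss and everything that follows from peak width are description and carry no test.

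H3K27ac was profiled by CUT&Tag, a method that tethers a transposase to the marked chromatin through an antibody and sequences the released DNA. MV4-11 carries a KMT2A fusion and Kasumi-1 the RUNX1::RUNX1T1 fusion, and each line was given a control hairpin (NC, labelled untreated) or a short hairpin RNA that lowers ANP32B (sh-ANP32B). The series has 6 samples, namely 1 H3K27ac library per line and hairpin (4 peak lists, 93160 peaks on these chromosomes) and 2 IgG libraries that are not analysed here. Replicates had been merged before peaks were called, which hairpin was used is not given in the sources used here, and neither read depth nor peak height was in the lists, so differences have no replicate check.

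H3K27ac is the acetylation of lysine 27 on histone H3, placed mainly by the acetyltransferases CBP and p300. It marks nucleosomes beside active promoters and enhancers. At a promoter it usually flanks the start site and lies most strongly on the first nucleosomes inside the gene. ANP32B is an acidic nuclear protein that binds histones and is counted among the factors that regulate histone acetylation. Most promoters of widely used genes lie in CpG islands, stretches rich in G, C and the CG dinucleotide.

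The lists were compared with the identity of the lines before they were used. HOXA9, HOXA10 and MEIS1, homeobox genes that KMT2A fusions keep active, had promoter peaks in all 4 lists. Over the HOXA9 gene and 2500 bases to each side, peaks covered 1703 bases in MV4-11 NC, 1047 in MV4-11 sh-ANP32B, and in Kasumi-1 16762 (NC) and 19655 (sh-ANP32B). RUNX1T1, the fusion partner in Kasumi-1, and POU4F1, a transcription factor typical of leukemia with that fusion, had 0 peaks over the gene in all 4 lists. KIT, a receptor commonly high in such leukemia, had no promoter peak in any list. Its summed peak width, taken in the same way, was 3490 bases in MV4-11 NC against 2769 in Kasumi-1 NC. For MEIS1 this width was 13238 bases in MV4-11 NC and 11031 in Kasumi-1 NC. The lists labelled Kasumi-1 thus went against that label at HOXA9, RUNX1T1 and POU4F1, although RUNX1T1 and POU4F1 had no peak in MV4-11 either. HOXA10 (9096 bases in Kasumi-1 NC, 5240 in MV4-11 NC) and KIT, slightly higher in MV4-11, also went against it. MEIS1 had slightly more in MV4-11. In what follows, Kasumi-1 names the lists with that label, and results on Kasumi-1 rest on these lists alone. ANP32B itself kept its promoter peak in MV4-11 and had 1 in each Kasumi-1 list. The lists held 22724 (Kasumi-1 NC), 23833 (Kasumi-1 sh-ANP32B), 24491 (MV4-11 NC) and 22112 (MV4-11 sh-ANP32B) peaks. The MV4-11 sh-ANP32B list covered 23.0 Mb and the MV4-11 NC list 27.9 Mb, and the smallest peak differed between lists, from 275 to 357 bases. The part of these list-wide differences in the loss was not tested.

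Sequences at the centre of 7 lost peaks show how unlike these regions were in base composition. Each is 300 bases on the plus strand of hg38, and capitals mark short words that transcription factors are known to bind, searched on both strands. The words were CCAAT (bound by NF-Y), GGGCGG (SP1 and KLF factors), CCGGAAG (ETS factors), GCATGCGC (NRF1), CACGTG (the E-box of MYC/MAX and related factors), TGACGTCA (CREB and ATF factors), AAGATGGCG (YY1) and TATAAA (the TATA box), and none of them contains another. The first pair, NOL4L and DLEU7, are among the 3 widest lost peaks whose windows held no sh-ANP32B peak. The centre at NOL4L was 79.0% GC with 31 CG dinucleotides, whereas that at DLEU7 was 38.0% GC with 0.
NOL4L chr20:32583612-32583911: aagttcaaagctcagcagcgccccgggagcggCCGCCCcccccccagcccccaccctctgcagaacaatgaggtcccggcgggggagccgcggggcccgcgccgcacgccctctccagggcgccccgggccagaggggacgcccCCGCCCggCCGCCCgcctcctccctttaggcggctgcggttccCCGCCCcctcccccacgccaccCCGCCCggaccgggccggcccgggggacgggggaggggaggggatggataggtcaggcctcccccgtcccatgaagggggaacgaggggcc
DLEU7 chr13:50845120-50845419: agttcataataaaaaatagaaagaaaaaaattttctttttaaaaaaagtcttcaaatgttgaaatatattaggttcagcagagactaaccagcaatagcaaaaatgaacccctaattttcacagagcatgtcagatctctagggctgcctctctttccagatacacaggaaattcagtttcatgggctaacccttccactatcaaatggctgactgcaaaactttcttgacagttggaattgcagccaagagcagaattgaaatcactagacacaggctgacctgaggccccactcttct
CCNB1 (cyclin B1, which drives entry into mitosis) is shown because the study followed its protein, and its centre was 60.7% GC with 1 CCAAT word on the minus strand at base 229.
CCNB1 chr5:69167281-69167580: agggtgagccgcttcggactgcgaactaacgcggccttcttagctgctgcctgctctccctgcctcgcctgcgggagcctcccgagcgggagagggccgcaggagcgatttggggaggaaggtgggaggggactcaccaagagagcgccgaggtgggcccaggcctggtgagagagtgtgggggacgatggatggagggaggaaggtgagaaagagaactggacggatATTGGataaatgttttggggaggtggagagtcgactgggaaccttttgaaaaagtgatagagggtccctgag
The next pair are the widest members whose Kasumi-1 NC peak was absent after knockdown too. The first lies over the starts of the divergent genes RPUSD1 and CHTF18 and held 50 CG dinucleotides and 10 words. The second lies at BMPR1A, a receptor for bone morphogenetic proteins, with 43 CG dinucleotides.
RPUSD1/CHTF18 chr16:788344-788643: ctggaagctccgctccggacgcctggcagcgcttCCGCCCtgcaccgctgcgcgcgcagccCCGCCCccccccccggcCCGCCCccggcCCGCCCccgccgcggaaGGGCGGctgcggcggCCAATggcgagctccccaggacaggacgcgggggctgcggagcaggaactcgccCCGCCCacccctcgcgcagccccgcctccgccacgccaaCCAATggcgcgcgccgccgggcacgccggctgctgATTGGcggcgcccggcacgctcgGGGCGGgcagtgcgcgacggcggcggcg
BMPR1A chr10:86756131-86756430: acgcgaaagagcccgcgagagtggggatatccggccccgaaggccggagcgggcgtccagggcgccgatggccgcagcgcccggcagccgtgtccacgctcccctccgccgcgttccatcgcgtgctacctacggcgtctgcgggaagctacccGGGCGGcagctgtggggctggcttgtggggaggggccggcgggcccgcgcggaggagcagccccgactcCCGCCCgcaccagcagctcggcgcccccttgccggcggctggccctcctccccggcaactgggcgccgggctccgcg
The last pair are the widest members with the ETS word (KCNK5, a potassium channel) and with the NRF1 word (TSC22D1, a transcription regulator). In TSC22D1 the NRF1 word stood on both strands, at bases 95 and 97, close to the YY1 word at base 83.
KCNK5 chr6:39228300-39228599: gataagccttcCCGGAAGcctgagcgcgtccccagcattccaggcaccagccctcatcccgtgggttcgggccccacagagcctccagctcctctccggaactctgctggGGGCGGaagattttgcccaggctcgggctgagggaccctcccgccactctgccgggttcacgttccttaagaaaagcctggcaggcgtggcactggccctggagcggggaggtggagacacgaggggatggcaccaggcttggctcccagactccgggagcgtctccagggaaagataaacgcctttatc
TSC22D1 chr13:44577349-44577648: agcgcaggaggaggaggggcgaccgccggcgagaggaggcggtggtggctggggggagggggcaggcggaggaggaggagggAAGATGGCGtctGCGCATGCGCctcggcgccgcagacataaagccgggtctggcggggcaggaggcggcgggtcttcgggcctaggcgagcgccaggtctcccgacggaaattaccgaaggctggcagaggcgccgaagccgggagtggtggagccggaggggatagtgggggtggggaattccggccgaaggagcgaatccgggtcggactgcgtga

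The lost peaks were narrow. Their median width was 529 bases (95% interval 514 to 545, quartiles 388 and 744), and that of the kept promoter peaks was 1144.5 bases (1117 to 1168). A peak's width is the only measure of its size in the lists. Of the lost peaks, 203 were at least 1000 bases wide (9.99%), compared with 2984 of the kept peaks (57.9%). Across quintiles of the NC promoter peaks by width, the share lost went down step by step. It was 63.3% among peaks of 289 to 494 bases, 42.1% at 495 to 741, 25.6% at 742 to 1082, 8.83% at 1083 to 1679 and 1.53% above that, where 22 peaks were lost. The plot of widths shows both sets on a log scale.

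**Figure D1:**
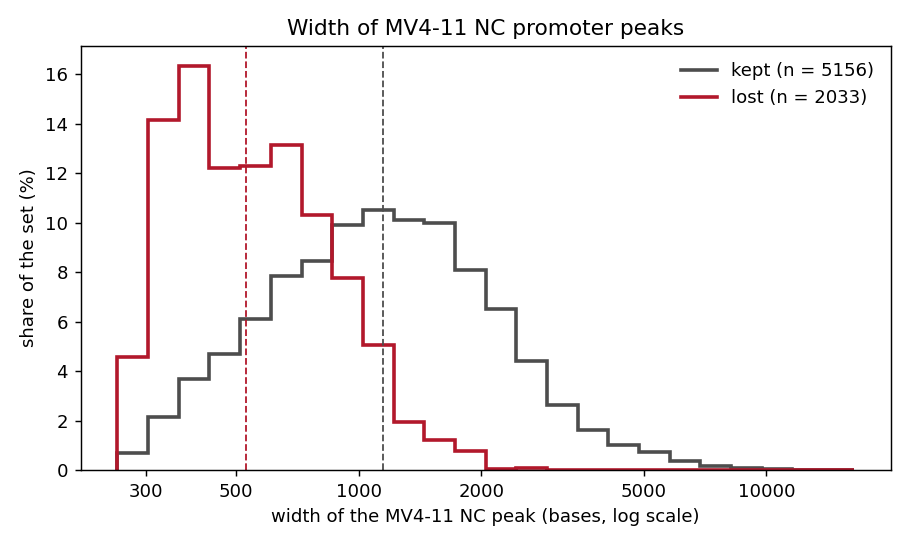
Width of MV4-11 NC promoter peaks in bases (x axis, log scale) against the share of the set in each width class (y axis, percent), for 2033 lost peaks (red) and 5156 kept peaks (grey). Dashed lines mark the medians, 529 bases for lost peaks and 1144.5 for kept peaks, and the widest lost peak was 2771 bases.

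The width of a lost peak in its 4 lists can be given for single genes. MYC, the transcription factor that drives growth and proliferation, had 1 NC promoter peak, at chr8:127735260-127736152, 893 bases wide and ending 79 bases before the start. It had no MV4-11 sh-ANP32B peak in the window, and the overlapping Kasumi-1 peaks were 4311 bases in NC and 4466 in sh-ANP32B. At CCNB1, the lost peak covered the start (chr5:69167093-69167767, 675 bases), and the Kasumi-1 peaks were 1456 and 1445 bases. Both genes thus lost their only promoter peak in MV4-11 and held a wider one in both Kasumi-1 lists. BAX, a pro-apoptotic effector for which the study lists an antibody, had 1 NC peak of 360 bases, 16 bases inside the gene, which was lost with no sh-ANP32B peak left in the window. It overlapped a Kasumi-1 NC peak of 1542 bases and no Kasumi-1 sh-ANP32B peak, although the window held 2 of these. ANP32A, CTPS1, MCM6, RANBP1, TRMT2A and PLK1 had NC promoter peaks and none was lost, and CDK2 and BCL2 had no NC promoter peak to lose.

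Among the 10 widest lost peaks in windows with no sh-ANP32B peak, all overlapped a peak in both Kasumi-1 lists. NUCB2 (nucleobindin-2, a calcium-binding protein) had the widest, 2771 bases over the start, with Kasumi-1 peaks of 3235 bases in NC and 3326 in sh-ANP32B. The nearest MV4-11 sh-ANP32B peak was 105877 bases away. NOL4L followed with 2641 bases inside the gene (chr20:32582441-32585081, intron at the centre), where the Kasumi-1 peaks were 5655 and 4522 bases. DLEU7, a gene named for a region deleted in lymphocytic leukemia, had 2113 bases upstream of its start, and its Kasumi-1 peaks, 1111 and 821 bases, were narrower than the lost peak. FURIN, a protease that cleaves proprotein precursors, had 2041 bases inside the gene, with a sh-ANP32B peak 776 bases from it but outside the window. The other 6 were KCNK5 (2015 bases, with a sh-ANP32B peak 1263 bases from it but outside the window), PHF11 (2014), ACY3 (1942), PADI1 (1870), SLC66A2 (1869) and LRCH1 (1863). They encode proteins of unrelated kinds, among them a potassium channel (KCNK5), an aminoacylase (ACY3) and a peptidylarginine deiminase (PADI1).

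A further 454 lost peaks (the other 1579 being in windows left without any peak) had a sh-ANP32B peak elsewhere in a window. The widest of them were at SYNE3 (1997 bases, encoding the nuclear envelope protein nesprin-3), MFAP4 (1708, an extracellular matrix protein), PRRC2B (1269), PTCH1 (1241, the receptor of Hedgehog ligands) and ZMYND8 (1224, a reader of acetylated histones). At SYNE3 and ZMYND8 no Kasumi-1 list had a peak. Peaks in emptied windows had a median width of 552 bases against 461 in windows that kept a peak, and a median GC content of 65.0% against 58.1%. The median gap from a lost peak to the nearest sh-ANP32B peak was 17886 bases (quartiles 3309 and 54673). Only 5 were within 100 bases of one and 143 (7.03%) within 500 bases.

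A few peaks lay close to the limits of the rule. At BAK1, an apoptosis effector, the lost peak (364 bases) stopped 6 bases short of a sh-ANP32B peak, and at PRR7 the gap was 40 bases. On the other side, the kept peaks at AEBP2 and ABHD17C shared 4 bases with a sh-ANP32B peak. SLC36A4 and PRKD2 had lost peaks 2498 and 2496 bases from the start, just inside the window, while lost peaks at HOXA10 (chr7:27171484-27171817) and VWA1 lay 2503 and 2511 bases away and were not counted.

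Lost peaks sat beside the start more often than on it. Of the 2033, 802 covered a start (39.4%), 859 lay downstream (42.3%) and 372 upstream (18.3%), each by its nearest start. Of the kept peaks, 65.9% covered a start, 22.4% lay downstream and 11.7% upstream. The difference for covering the start was -26.5 percentage points (Newcombe 95% interval -29.0 to -24.0). Wide peaks reach a start more easily, and the lost peaks that covered one had a median of 681.5 bases against 1360 for kept ones. Lost peaks beside a start had their nearer edge at a median of 186 bases downstream or 518 bases upstream. In both sets, peaks most often lay over the position 150 bases inside the gene, 55.8% of lost peaks and 74.0% of kept ones, as the plot of position shows. The centres of 891 lost peaks were in an intron, 229 in a 5′ UTR, 194 in a coding exon, 6 in a 3′ UTR and 713 outside the gene. These shares were like those of the kept peaks (43.8% against 43.3% intronic, 35.1% against 35.3% outside). Windows of more than 1 gene were touched by 15.7% of lost and 15.8% of kept peaks.

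**Figure D2:**
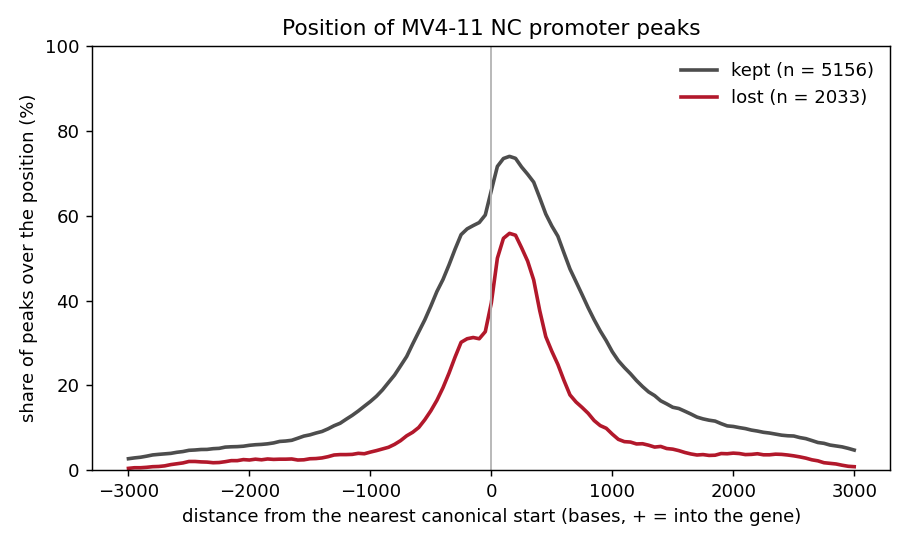
Share of MV4-11 NC promoter peaks that lay over each position (y axis, percent), by distance from the nearest canonical start (x axis, bases, positive into the gene), for 2033 lost peaks (red) and 5156 kept peaks (grey). Both curves are highest 150 bases inside the gene, at 55.8% and 74.0%, and at the start itself they are at 39.4% and 65.9%.

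GC content is a property of the reference sequence and was not used to choose the peaks. The median GC content of lost promoter peaks was 63.8% (95% interval 63.1 to 64.5) and that of kept ones 61.0% (60.7 to 61.3). Lost and kept peaks outside promoters both had a median of 47.5%. The ratio of observed to expected CG dinucleotides was 0.739 in lost and 0.718 in kept promoter peaks, against 0.214 and 0.223 outside promoters. Both promoter sets thus had the composition of CpG islands, and both sets outside promoters did not. The share lost was 25.9%, 21.8%, 23.1% and 26.8% in the first 4 GC quintiles and 43.8% (Wilson 95% interval 41.3 to 46.4) in the last, where GC exceeded 68.6%.

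GC-rich peaks were also narrow, with a median width of 687 bases in the GC-richest quintile against 891 to 1056.5 in the others. Within single width classes the GC-richest quintile still had the highest share lost. Among peaks of 742 to 1082 bases it was 40.8% (35.2 to 46.7), and 19.4% to 25.3% in the other GC quintiles. Among peaks of 1083 to 1679 bases it was 18.7% (14.3 to 24.1), and 4.43% to 7.97% in the others. In the narrowest class the values were close, 68.1% against 58.8% to 64.4%. At 495 to 741 bases the share was 47.7% (42.8 to 52.8), against 45.2% (39.8 to 50.9) in the next GC quintile. In the widest class 6 of 123 GC-rich peaks were lost (4.88%). Inside the classes lost peaks were still narrower than kept ones. The medians were 867 and 916.5 at 742 to 1082 bases, and 1214 and 1349 at 1083 to 1679. The classes thus do not hold width fixed. CUT&Tag libraries are amplified by PCR, whose yield depends on base composition, and the part of amplification in the GC pattern was not tested. Among peaks that covered the start, the median GC content was 66.3% for lost and 61.8% for kept peaks, upstream it was 57.4% and 56.1%, and downstream 63.2% and 60.3%.

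**Figure D3:**
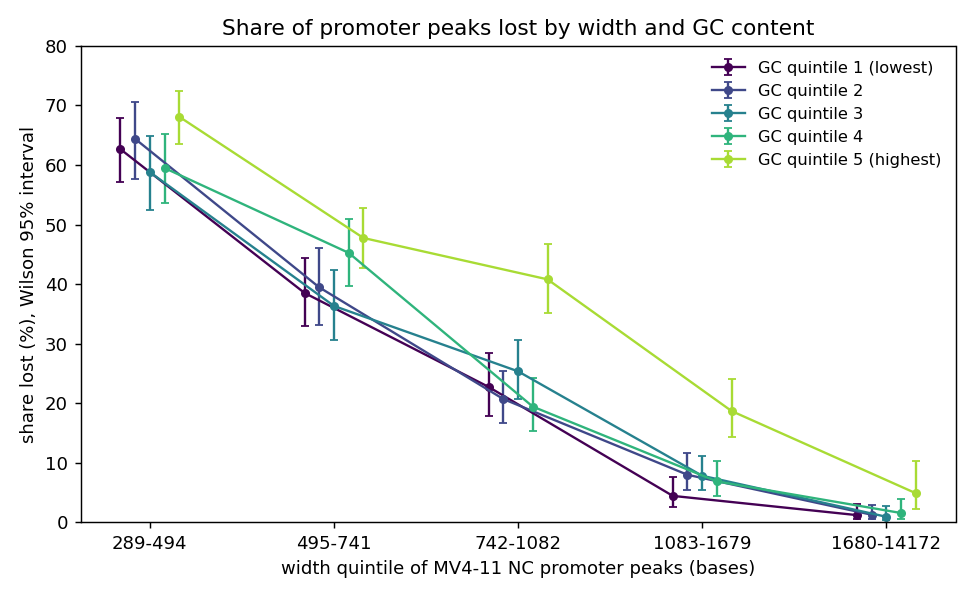
Share of MV4-11 NC promoter peaks lost after knockdown (y axis, percent, bars are Wilson 95% intervals that cover counting error only) by width quintile in bases (x axis), with a line for each quintile by GC content. The GC-richest quintile (light green) is the highest in each width class, 40.8% at 742 to 1082 bases where the other quintiles are at 19.4% to 25.3%.

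The words in the 300 bases at the peak centre differed little between lost and kept promoter peaks. GGGCGG was present in 55.5% of lost peaks (53.4 to 57.7), 52.2% of kept ones, 11.4% of lost peaks outside promoters and 61.3% of the 300-base promoters of all genes (250 bases before to 50 after the start). CCAAT was in 20.3% of lost and 22.1% of kept peaks, and the ETS word in 11.1% and 10.6%. The NRF1 word was in 1.67% and 1.90%, the CREB word in 1.08% and 1.09%, and the YY1 word in 1.97% and 2.4%. The MYC/MAX word CACGTG was in 5.85% of lost peaks (4.91 to 6.96) and 7.27% of kept peaks (6.60 to 8.01). The TATA word was in 5.21% and 5.18% of promoter peaks and in 17.4% of lost peaks outside promoters. Of all promoters, 36.0% held CCAAT, 14.1% the ETS word, 4.25% the NRF1 word, 8.75% CACGTG, 2.69% the CREB word, 2.84% the YY1 word and 9.73% TATAAA. These promoters were placed by the start and include genes without an NC peak, so their shares are not matched to the peak shares. Where a window had a lost peak and no sh-ANP32B peak, the promoter held GGGCGG in 76.3%, the ETS word in 23.2%, CACGTG in 11.4% and CCAAT in 34.4%. For genes with an NC peak and none lost, these were 72.4%, 21.5%, 11.2% and 35.7%. A word is a match of letters and not a bound site.

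In Kasumi-1, whose lists took no part in the choice, most of the lost regions carried H3K27ac. Of the 2033, 1762 overlapped a Kasumi-1 NC peak (86.7%, Wilson 95% interval 85.1 to 88.1), 1689 a Kasumi-1 sh-ANP32B peak (83.1%) and 1649 both. Of the kept promoter peaks, 94.8% overlapped a Kasumi-1 NC peak, a difference of -8.09 percentage points (-9.74 to -6.55), and 93.6% a Kasumi-1 sh-ANP32B peak. No Kasumi-1 peak in either list overlapped 231 lost peaks (11.4%) and 4.42% of kept ones. Lost peaks outside promoters overlapped a Kasumi-1 NC peak in 37.0% of cases.

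Much of this difference went with width. Among the narrowest peaks (289 to 494 bases), 80.2% of lost and 84.9% of kept ones overlapped a Kasumi-1 NC peak, a difference of -4.64 points (-8.53 to -0.52). At 495 to 741 bases the shares were 88.8% and 90.9% (difference -2.10, -5.38 to 1.03), and at 742 to 1082 bases 95.1% and 94.9%. In the class of 1083 to 1679 bases they were 96.9% and 96.5%. The intervals of the difference included 0 in the 4 wider classes, which does not show that the shares were equal. The shares also differed by base composition. In the quintile with the lowest GC content, 60.1% of lost peaks overlapped a Kasumi-1 NC peak against 79.4% of kept ones, and in the GC-richest quintile 95.4% against 98.9%.

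**Figure D4:**
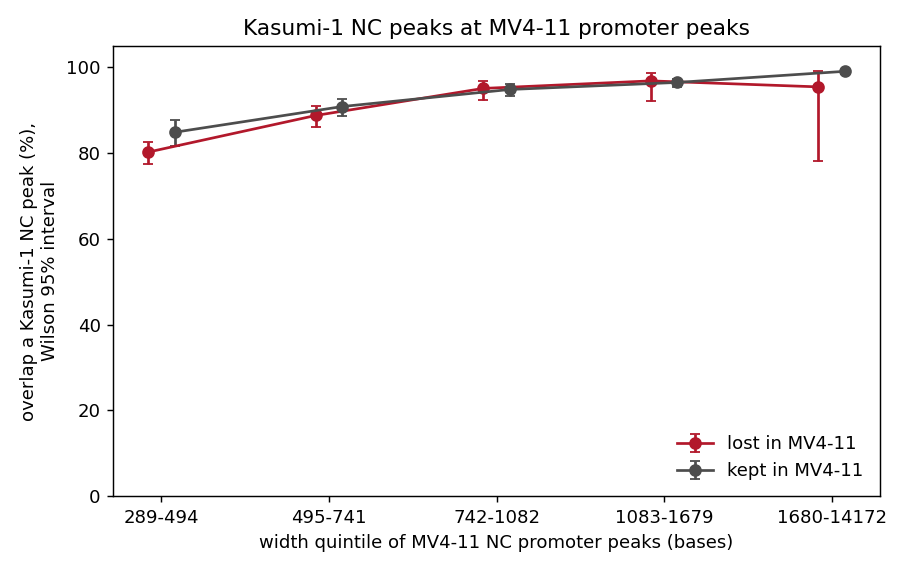
Share of MV4-11 NC promoter peaks that overlap a Kasumi-1 NC peak (y axis, percent, bars are Wilson 95% intervals) by width quintile in bases (x axis), for peaks lost (red) and kept (grey) in MV4-11. In the narrowest class the shares are 80.2% and 84.9%, and at 742 to 1082 bases they are 95.1% and 94.9%.

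The Kasumi-1 peaks at the lost regions were wide, with a median of 1511.5 bases in NC (quartiles 1041 and 2268.75), against 1810 at kept peaks. Where both Kasumi-1 lists had a peak, the widths in NC and sh-ANP32B were close at the median. The median log2 ratio of the sh-ANP32B to the NC width was -0.002 at lost peaks (n = 1649 peaks, -0.010 to 0.006) and 0.011 at kept peaks (n = 4785 peaks). The interval is over peaks of a single pair of lists and holds no replicate spread. It therefore does not show that knockdown left the widths in Kasumi-1 unchanged. The Kasumi-1 peak was narrower after knockdown at 837 of the lost regions (50.8%). The widest Kasumi-1 peak over a member was at CEBPA, the myeloid transcription factor C/EBPα. In MV4-11 the CEBPA window held 2 NC peaks, of 967 and 755 bases, both lost, and in Kasumi-1 a single peak of 13379 bases in NC and 13141 in sh-ANP32B spanned them. An MV4-11 sh-ANP32B peak lay 1088 bases from the wider lost peak, outside the window. Next was GNAI2, a G protein subunit, where a lost peak of 619 bases lay in Kasumi-1 peaks of 12787 and 12746 bases.

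Few regions were lost in both lines. Of the 1762 members with a Kasumi-1 NC peak, 76 overlapped only Kasumi-1 NC peaks that were themselves lost (4.31%, 3.46 to 5.37), compared with 84 of 4886 kept peaks (1.72%). The difference was 2.59 points (1.65 to 3.70). Over all Kasumi-1 NC promoter peaks, 8.14% were lost. That share counts Kasumi-1 peaks, also those without an MV4-11 peak, so it is not matched to the shares of MV4-11 peaks. By width class, the share among lost and kept MV4-11 peaks was 5.75% and 4.45% in the narrowest, 5.20% and 3.83% in the next and 1.72% and 2.17% in the class of 742 to 1082 bases. At 1083 to 1679 bases it was 0 of 123 lost peaks and 0.711% of kept ones, and above that 0 of 21 and 0.285%. Lost peaks thus had the higher share only below 742 bases. Of the 76, 56 were in the GC-richest quintile. There they were 9.32% of 601 lost peaks with a Kasumi-1 NC peak (7.25 to 11.9), against 30 of 799 kept peaks (3.75%).

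The widest of the 76 was the peak over the starts of RPUSD1, a pseudouridine synthase family member, and CHTF18, a subunit of a clamp loader for sister chromatid cohesion. It was 1081 bases in MV4-11 NC and 545 in Kasumi-1 NC, and both sh-ANP32B lists had no peak there. BMPR1A followed with 930 and 1385 bases, then MAFK, a small MAF transcription factor, with 899 and 1377. MRE11, a nuclease of DNA double-strand break repair that shares its promoter region with ANKRD49, had 897 and 387 bases, and CPNE2, a copine, 895 and 1223. At 3 of these 5 the Kasumi-1 NC peak was the wider of the pair. At the opposite end, the widest lost peaks with no Kasumi-1 peak in either list were at SYNE3, ZMYND8 and ATP8B4 (1111 bases). Their GC contents were 45.4%, 42.1% and 39.8%, and each lay over 1000 bases from its start with a sh-ANP32B peak still in the window.

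A gene was called emptied where its window had a lost peak and no MV4-11 sh-ANP32B peak. Of the 7158 genes with an NC promoter peak, 2235 had a lost peak (31.2%) and 1735 were emptied (24.2%). Of the emptied genes, 1609 had had a single NC peak, and 1601 (92.3%) had a Kasumi-1 NC promoter peak. In Kasumi-1, 1527 of them had a peak in both lists, 74 in NC alone, 29 in sh-ANP32B alone and 105 in neither. The other 500 genes with a lost peak still had a sh-ANP32B peak, and 95 of these windows held a sh-ANP32B peak that overlapped no NC peak. Lost peaks were spread over all chromosomes, from 22.3% of NC promoter peaks on chromosome 21 (21 of 94) to 34.0% on chromosome 16 (126 of 371). Neighbouring emptied genes, taken in gene order at any distance, formed 322 runs, of which 35 held at least 3 lost peaks and none more than 4. Many runs were 1 lost peak in the windows of adjacent genes, such as KRIT1 to ANKIB1 on chromosome 7. The number of runs that a share of 24.2% would give without clustering was not computed, so the runs are description only. Runs with 4 lost peaks included ZBTB5 to TOMM5 on chromosome 9, DST to BAG2 on chromosome 6, and PHKG2 to ZNF629 on chromosome 16.

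The genes were read by role with 24 lists, each count set beside the 24.2% of all genes with an NC promoter peak. Among cell cycle and mitosis genes, 15 of 58 with an NC peak were emptied (25.9%). They included MYBL2 (1224 bases, a transcription factor for late cell cycle genes), PKMYT1 (1117, an inhibitory kinase of CDK1) and E2F1 (1043, an activator of S phase genes). All 15 had a promoter peak in both Kasumi-1 lists. At E2F1, the widest Kasumi-1 peak over the lost region was 3120 bases in NC and 1119 in sh-ANP32B. The E2F1 window held 1 Kasumi-1 NC peak and 2 Kasumi-1 sh-ANP32B peaks, so these widths alone do not give the change in covered bases. Of DNA replication and repair genes, 15 of 42 were emptied (35.7%), among them XRCC3 (945 bases, homologous recombination), RFC4 (874, a clamp loader subunit) and FANCC (767, the Fanconi anemia pathway). All 15 had a Kasumi-1 NC promoter peak and 14 a Kasumi-1 sh-ANP32B peak.

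Of 48 MYC pathway genes with an NC peak, 12 were emptied (25.0%). The widest lost peaks were at TYMS (952 bases, thymidylate synthase), WDR43 (951, ribosome biogenesis) and FBL (809, the nucleolar methyltransferase fibrillarin), and all 12 had promoter peaks in both Kasumi-1 lists. Of 16 p53 targets, 6 were emptied (37.5%), including DDB2 (955 bases, DNA damage recognition), TIGAR (536, a regulator of glycolysis) and BBC3 (469, the pro-apoptotic protein PUMA). At BBC3 the lost peak lay 1946 bases inside the gene, with a sh-ANP32B peak 116 bases from it but outside the window. TIGAR was lost in Kasumi-1 too, where its NC peak was 385 bases. BIRC2, an inhibitor of apoptosis, had a lost peak of 860 bases, and 4 of 21 apoptosis genes were emptied.

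Genes of protein synthesis and energy metabolism came next. Of the 78 cytosolic ribosomal protein genes with an NC peak, 7 were emptied (8.97%), with RPL8 (1021 bases) and RPS24 (758) the widest. Of 55 mitochondrial ribosomal protein genes, 20 were emptied (36.4%), with MRPL53 (1012 bases), MRPL24 (948) and MRPL20 (929) the widest. The median widest NC peak of the cytosolic list was 1189.5 bases and that of the mitochondrial list 902, against 995 over all 7158 genes. For proteasome subunits this median was 914.5 bases and for oxidative phosphorylation subunits 951. The part of width in these counts was not tested. Of the 20 mitochondrial genes, 17 had a Kasumi-1 NC promoter peak and 18 a Kasumi-1 sh-ANP32B peak. Oxidative phosphorylation subunits had 9 of 61 emptied (14.8%), led by NDUFB10 (862 bases), ATP5F1B (813) and NDUFS8 (747). Aminoacyl-tRNA synthetases had 5 of 21, with WARS2 (1241 bases) widest, chaperones 9 of 39, with HSPB6 (1536) widest, and proteasome subunits 3 of 32, with PSMD10 (647) widest.

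Genes of RNA synthesis and chromatin followed. Splicing factors had 8 of 66 emptied (12.1%, SRSF3 1070 bases, SNRPC 1051, PRPF19 744), and RNA polymerase and Mediator subunits 8 of 41 (POLR2D 937 bases, POLR1D 627, MED11 597). Histone and DNA modifying enzymes had 9 of 50 (18.0%). HDAC1, a histone deacetylase, had a lost peak of 1021 bases over its start, with Kasumi-1 peaks of 2990 bases in NC and 1691 in sh-ANP32B. HAT1, which acetylates newly made histone H4, had 1014 bases, and KAT6B, a further acetyltransferase, 959 bases with a sh-ANP32B peak elsewhere in its window. Zinc finger genes had 56 of 173 emptied (32.4%), with ZNF622 (1152 bases), ZNF629 (1028) and ZNF775 (987) the widest. Replication-dependent histone genes had 2 of 45 emptied, H2BC18 and H3C13, which share 1 lost peak of 1063 bases. The median widest NC peak was 2477 bases in the histone list, 1439 in the splicing list, 1386.5 in the modifying enzyme list, 835 in the zinc finger list and 755 in the polymerase and Mediator list.

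Of 28 blood and myeloid transcription factors with an NC peak, 5 had a lost peak and 3 were emptied (10.7%). The emptied ones were CBFB (1197 bases, the partner subunit of RUNX proteins), CEBPA and MYC, while HOXA10 (936 bases) and RUNX3 (303) kept a sh-ANP32B peak in the window. At CBFB, the Kasumi-1 peaks were 2445 bases in NC and 2473 in sh-ANP32B. Of 26 myeloid differentiation and surface genes, 8 were emptied (30.8%). CSF3R, the receptor of granulocyte colony-stimulating factor, lost a peak of 1321 bases, CD47, an inhibitor of phagocytosis, 641, and TLR2, an innate immune receptor, 611. FCGR2A (425), ELANE (420), PRTN3 (396), CD36 (371) and FLT3 (299) were emptied with narrower peaks, and all but CD36 of these 8 had a Kasumi-1 NC promoter peak. Of the 19 KMT2A fusion partner, elongation and BET genes, MLLT1 alone was emptied (844 bases), and CDK9 (953) and ELL (895) had lost peaks beside kept ones.

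The remaining lists covered broad cell functions. Interferon-stimulated genes had 4 of 12 emptied (IFITM2 993 bases, IRF1 610, USP18 498), and vesicle traffic GTPases 5 of 39 (RAB5A 1401 bases, RAB8A 1190). Ubiquitin ligases and proteases had 29 of 134 (RNF41 1540 bases, FBXO41 1272, RNF216 1171). The list of centrosome and cilium genes, which takes in all genes with a CCDC name and so is mixed in role, had 18 of 69 (TUBGCP6 1069 bases, CEP250 1002). Solute carriers had 26 of 107 emptied (24.3%) and 40 with a lost peak, led by SLC66A2 (1869 bases), SLC10A7 (1211) and SLC5A5 (1046). Of the 24 lists, 10 had an emptied share above that of all genes and 14 below it. The lists were counted with these data known and by the contrast that chose the peaks, so nothing was read from these shares.

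**Figure D5:**
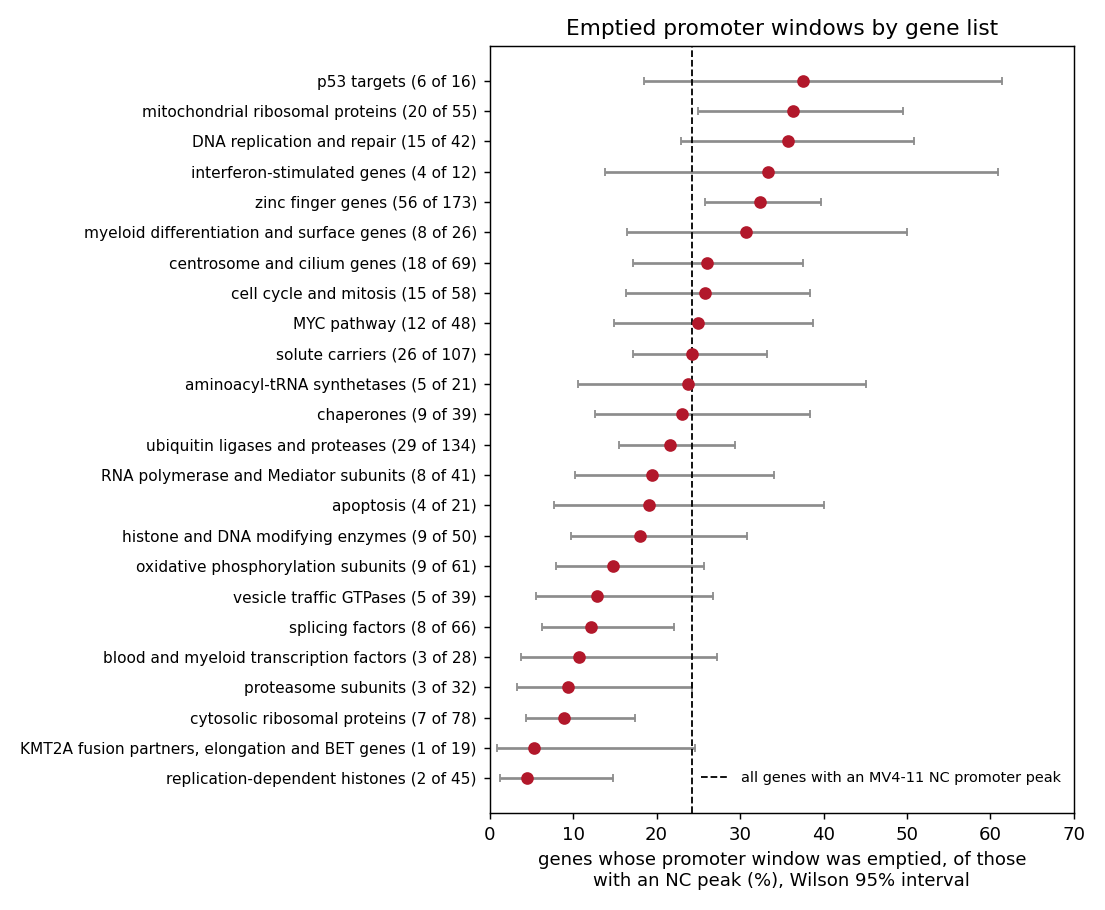
Share of genes whose promoter window was emptied in MV4-11, of those with an NC promoter peak (x axis, percent, bars are Wilson 95% intervals that cover counting error only), for 24 gene lists (y axis, with counts). The dashed line is the 24.2% of all 7158 genes with an NC promoter peak. Mitochondrial ribosomal proteins are at 36.4% and cytosolic ribosomal proteins at 8.97%.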

How the data were processed

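H3K27ac CUT&Tag peak lists of 4 libraries (Kasumi-1 and MV4-11, each NC and sh-ANP32B) were analysed. Per the study's methods and the submitters' processing notes, reads were aligned to hg38 with Bowtie2 (2.4.4 in the notes), duplicates were removed with Picard, replicates were merged with samtools, and peaks were called with MACS (MACS3 3.0 in the notes). The methods name other versions, and the control used in calling is not given in the sources used here. The deposited lists give each peak's chromosome, start, end and length in bases, without height, q-value or reads, so the depth is unknown. No peak ran past the end of its chromosome.

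From these lists, overlaps of at least 1 base, widths, GC content, words and gene positions (GENCODE v44, hg38 sequence) were computed with Python 3.11.15, numpy 2.4.6, pandas 2.3.3 and scipy 1.17.1. The code was tested on simulated data. The 300-base promoters were read from the hg38 sequence. With 1 list per group no test between conditions was possible. Shares have Wilson, differences Newcombe and medians order-statistic 95% intervals, which cover counting error only. Width and GC quintiles were set over all MV4-11 NC promoter peaks, and widths were set beside each result because calling is sensitive to peak size. Where several Kasumi-1 peaks of a list overlapped an MV4-11 peak, the width given is that of the widest.

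The members and gene lists were chosen with earlier results of these data known. The named genes were those of a short list from the study that held a member (the list had left out BAX), the 10 widest members in emptied windows and the 5 widest others, and up to 3 genes with the widest member in each list. Added to these were the 5 widest members lost in Kasumi-1 too, the 3 widest without a Kasumi-1 peak, the 3 under the widest Kasumi-1 peaks, and the nearest cases on each side of the rule's limits. Other listed genes (BAX, RUNX3, FCGR2A, ELANE, PRTN3, CD36, FLT3), the genes of the runs and the line markers were named after their values were seen. Some genes and 1 sequence that these rules pick are not reported here. The pattern for replication-dependent histones was corrected once, because it had matched H2AB1. The alternatives tried were a reciprocal overlap of 50%, a gap of at most 1000 bases counted as kept, a window of 1000 bases, a common smallest width and joining gap for all lists, peaks of at least 1000 bases only, and the starts of all transcripts.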

Additional observations from a re-analysis of the deposited data

How the results depend on the processing

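Each result was recomputed under 6 alternatives. Members overlapped Kasumi-1 NC peaks less often than kept peaks, and had the higher median GC content, under all 6. With peaks of at least 1000 bases only, the intervals of the overlap shares met, at 93.1 to 98.3 for members and 97.1 to 98.2 for kept peaks. Of 60 values, 29 stayed within their 95% interval (counts within 1.5 times) and 31 moved. With a reciprocal overlap of 50% there were 3178 members (44.2% of NC promoter peaks) at 3412 genes, with 89.6% overlapping a Kasumi-1 NC peak, 3.27% of those only a lost one, a median width of 675 bases and a median GC content of 62.8%. With a gap of at most 1000 bases counted as kept, 24.2% were lost, with a GC content of 64.6%, and 93.9% of kept peaks overlapped Kasumi-1 NC. With a 1000-base window, these overlaps were 91.2% for members and 97.2% for kept peaks, with GC contents of 65.5% and 61.9%. With 1 common smallest width (357 bases) and joining gap (358 bases), 29.4% were lost, the median width was 617 bases, and the overlaps were 88.8% and 95.6%. With peaks of at least 1000 bases only, 203 members remained (6.37%) at 237 genes, 209 of them emptied, with a median width of 1189 bases, overlaps of 96.6% and 97.7%, 0.510% overlapping only lost Kasumi-1 peaks, and a kept GC content of 60.3%. With the starts of all transcripts, the overlaps were 79.3% and 91.0%, and the GC contents 62.2% and 59.8%. The reasons for these moves were not tested. No paired analysis was possible because each group had 1 list, and for the same reason no replicate could be left out. The lists give no depth, so a lost peak and a peak below the caller's limit cannot be told apart.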
